A study of Mus musculus with 2 samples.

Results

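The 7 genes followed here were read in single cells of mouse mammary tumours: Csf1, Csf2 and Il6, which encode secreted factors, and Csf3r, Il3ra, Flt3 and Kit, which encode receptors. They were the 7 genes of the colony-stimulating factor, IL-3 and IL-6 group on the targeted panel, chosen by name, out of the 468 genes counted in tags 2 to 4. Tag 1 was counted with 396 genes, which include 6 of the 7, and Csf3r was read in tags 2 to 4. Cells came from 4T1 tumours, a BALB/c mammary carcinoma line placed in the mammary fat pad of female BALB/c mice of 8 weeks. All 4 arms carried the tumour and differed in antibody: rat isotype control, anti-Siglec-E, anti-PD-1, or anti-Siglec-E together with anti-PD-1. Each arm was a pool of 2 tumours, and each of the 2 samples was 1 cartridge with 2 arms told apart by sample tags. Tags 1 and 2 carried the isotype control and anti-Siglec-E arms, and tags 3 and 4 the arms that received anti-PD-1, alone or combined. Which of its 2 tags an arm had is not in the labels, so values are given by tag. Cells had been split by EPCAM and put back together at 1 EPCAM-positive to 4 EPCAM-negative, so the experimenters set the share of tumour cells. No group had a replicate, so nothing was tested: neither tags nor cells stand in for one.

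Colony-stimulating factors and interleukins 3 and 6 are secreted proteins that steer blood cell production and the survival of myeloid cells. Csf1 encodes M-CSF, the growth factor of monocytes and macrophages. Csf2 encodes GM-CSF, which acts on granulocytes, macrophages and dendritic cells and is known from activated T cells, mast cells and some carcinoma lines, 4T1 among them. Il6 encodes an inflammatory cytokine made by fibroblasts, endothelial cells, macrophages and mast cells. Csf3r encodes the G-CSF receptor, which drives neutrophil production and marks the granulocyte lineage. Il3ra encodes the ligand-binding chain of the IL-3 receptor. Flt3 encodes a receptor tyrosine kinase of blood progenitors that dendritic cells keep, and Kit that of stem cell factor, kept by mast cells and some innate lymphoid cells.

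Values are molecules of a gene per 1000000 molecules of the 396 shared genes, called CPM here, summed over the cells of a class in a tag. Each gene is read with its own primers, so levels of different genes were not set against each other. Tags 1, 2 and 3 held 2430, 1515 and 6620 of the 12018 cells, with medians of 1262 to 1463 molecules per cell over the 4 tags, and 37 cell indices occurred in more than 1 tag, always across cartridges. Cells were sorted into classes by marker genes that include none of the 7. Neutrophil-like cells numbered 8962, tumour cell-like 760, monocyte/macrophage-like 559, T cell-like 621, NK cell-like 124, dendritic cell-like 88, stromal cell-like 54, B cell-like 45 and mast cell/basophil-like 38. A further 387 cells are called mixed, and 380 passed no gate. Mixed cells passed more than 1 gate other than the neutrophil gate, or 1 such gate with S100a8 and S100a9 at 10% or more of their molecules. Epcam, which no gate used, was found in 94.7% of tumour cell-like cells of tags 2 to 4 and also in 36.4% of dendritic cell-like cells. Intervals are exact 95% intervals and cover counting error alone.

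The secreted factors had different main holders. Neutrophil-like cells held most Csf1 molecules, tumour cell-like cells held the largest class share of Csf2 in every tag, and the 38 mast cell/basophil-like and 54 stromal cell-like cells held much of the Il6. Among the receptors, Csf3r lay in neutrophil-like cells and Flt3 was highest in dendritic cell-like cells. Kit was spread over lymphoid, dendritic, mast cell/basophil-like and neutrophil-like cells. Il3ra was low in counts and stood higher in tags 1 and 2 than in tags 3 and 4 over all cells and in the 4 largest classes.

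**Figure D1:**
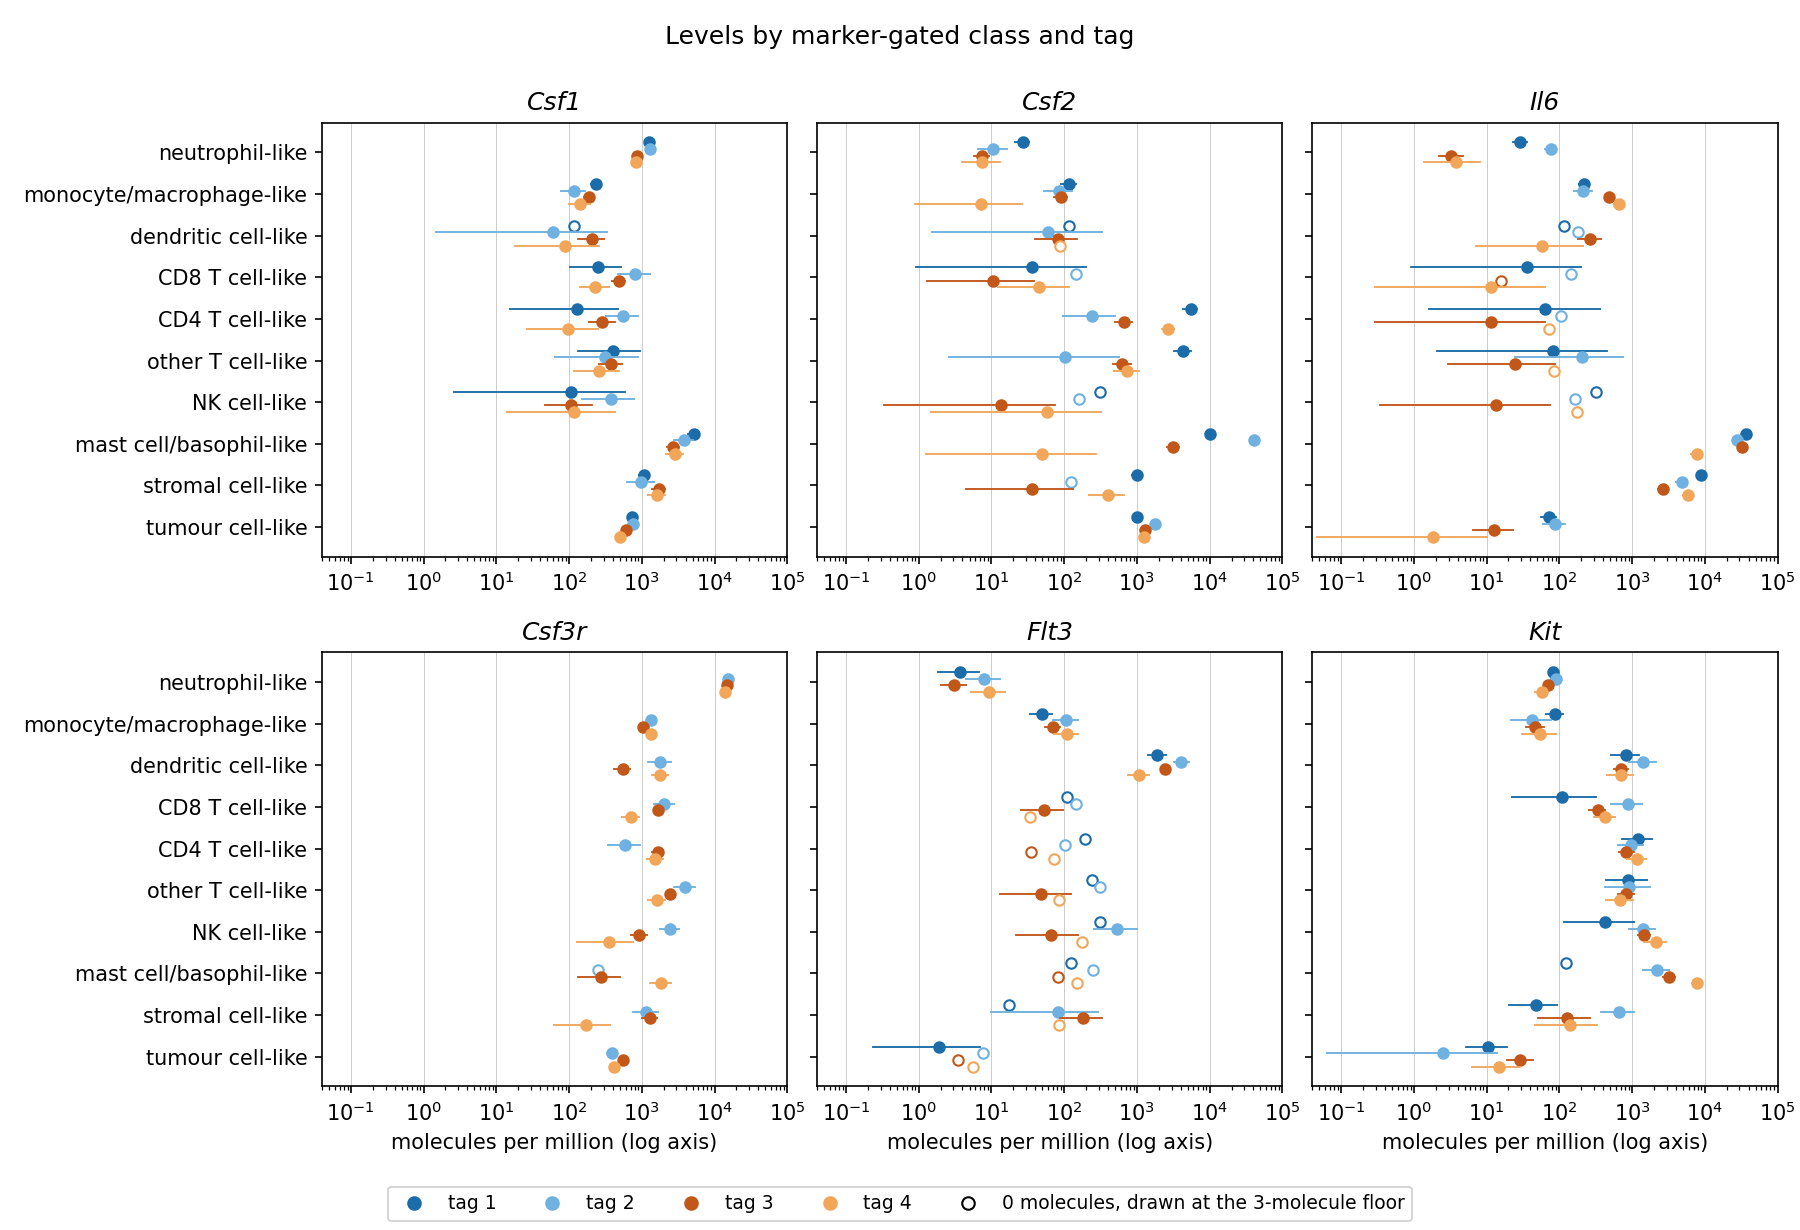
Level of 6 of the genes in each marker-gated class, in CPM on a log axis, 1 point per tag with exact 95% counting intervals; open circles are tags with 0 molecules, drawn at the level of 3 molecules. Csf3r stands at 13897 to 15125 in neutrophil-like cells, and Flt3 at 1080 to 4098 in dendritic cell-like cells, in both cases above every other class shown.

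**Figure D2:**
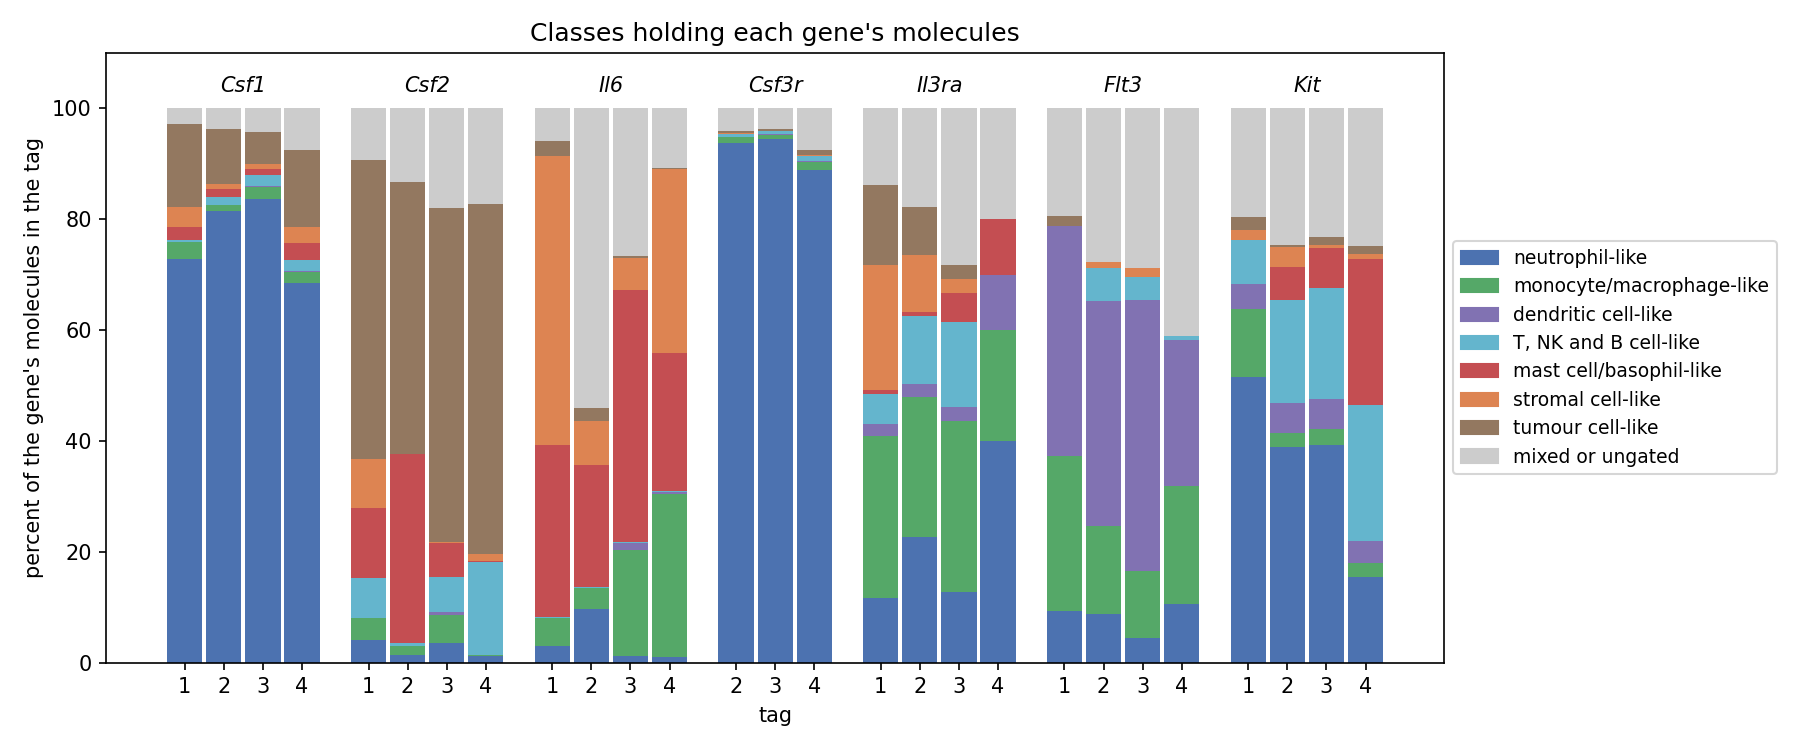
Percent of each gene's molecules (y axis) held by each class in each tag (x axis). Neutrophil-like cells hold 68.5 to 83.7% of Csf1, tumour cell-like cells 49.1 to 63.1% of Csf2, and mixed or ungated cells the largest part of Il6 in tag 2.

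Csf1, on chromosome 3 (GRCm38, 107741048 to 107760469, minus strand), had its highest level in mast cell/basophil-like cells and most of its molecules in neutrophil-like cells. Its CPM in neutrophil-like cells was 1264.5, 1284, 859 and 835 in tags 1 to 4, with counting intervals of 1224 to 1306, 1233 to 1336, 839 to 878 and 790.6 to 881. Tags 1 and 2 stood above tags 3 and 4, the nearest tags being 1.47-fold apart. These cells held 72.8, 81.5, 83.7 and 68.5% of all Csf1 molecules. At least 1 Csf1 molecule was seen in 61.0, 63.2, 53.9 and 54.7% of neutrophil-like cells, whose median depth was 1223, 1174, 1229 and 1226 molecules. Thinned to 500 molecules per cell, which left out 122, 78, 382 and 64 shallower cells, the shares were 40.5, 41.7, 33.9 and 33.4%. In NK cell-like cells, not known as a source of M-CSF, the thinned shares were 7.24, 8.47, 4.17 and 7.46% at median depths of 671, 978, 737 and 754 molecules. Neutrophil-like cells lay well above that background in every tag.

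Mast cell/basophil-like cells reached a Csf1 level of 5197, 3772, 2706 and 2820 CPM, above the range of every other class, from only 7, 6, 16 and 9 cells. In tag 4, 1 cell held 82.5% of that class's Csf1. Stromal cell-like cells followed with 1061, 979.95, 1708 and 1610 CPM and overlapped neutrophil-like cells in range. Tumour cell-like cells stood at 737, 749, 599 and 503 CPM and held 14.999, 9.997, 5.66 and 14.0% of the molecules. Monocyte/macrophage-like cells, which carry the receptor for this factor in textbook accounts, stood lower, at 238, 117, 187 and 141 CPM, and dendritic cell-like cells were lowest by mean.

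Within the neutrophil-like class Csf1 differed widely between cell states. Clustering without the 7 genes gave 7 clusters made mainly of neutrophil-like cells. In cluster 7, led by Elane, Chil3 and Mki67, genes of immature and dividing granulocytes, Csf1 stood at 143, 50.5, 56.5 and 28.9 CPM in tags 1 to 4. In cluster 3, led by Tnfsf14 and Il1r2, it stood at 2376, 2442, 1959 and 2182 CPM. Cluster 4, led by the chemokine gene Ccl4 and the adhesion gene Icam1, came close to that, with 1962.5, 2118, 1914 and 1568 CPM. The ranges of clusters 7 and 3 were far apart in all 4 tags. The calprotectin genes S100a8 and S100a9 took 68.8% of the molecules of cluster 7 and 23.1% of those of cluster 3, which lowers the CPM of other genes in cluster 7. With S100a8, S100a9 and Fth1 left out of the totals, Csf1 stood at 457, 154, 210 and 113 CPM in cluster 7 and at 3785, 3793.5, 3332 and 3648.5 CPM in cluster 3. Tags 3 and 4 lay below tags 1 and 2 in 5 of the 7 clusters, with the nearest tags at most 1.31-fold apart, and in 3 of 7 with those genes left out.

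**Figure D3:**
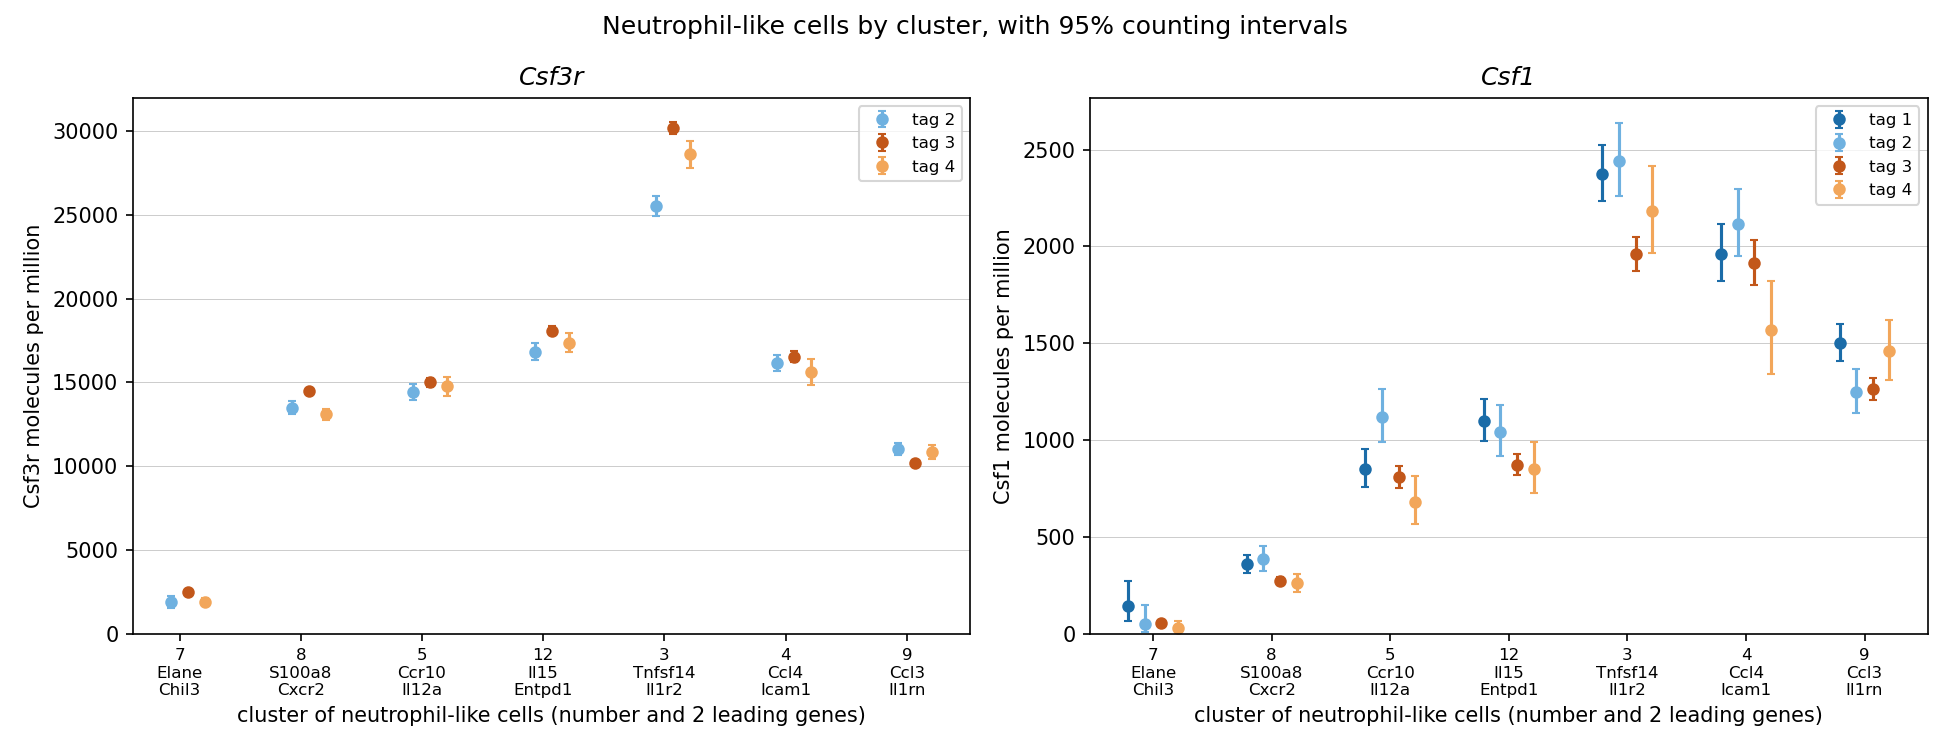
Csf3r and Csf1 levels in CPM (y axes, linear) in each cluster of neutrophil-like cells (x axes, ordered from the highest share of S100a8 and S100a9), 1 point per tag with exact 95% counting intervals. Both genes are lowest in cluster 7 and highest in cluster 3.

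Csf2, on chromosome 11 (54247271 to 54249667, minus strand), was carried mainly by tumour cell-like cells. Mast cell/basophil-like cells, few in number, stood above them in level in every tag but tag 4, where they stood below. T cell-like cells stood above tumour cell-like cells in tag 1 alone. Tumour cell-like cells stood at 1002, 1769, 1287 and 1254 CPM, with 1045, 699, 1102 and 681 molecules. They held 53.9, 49.1, 60.3 and 63.1% of all Csf2, a similar part in the 4 tags. The molecules sat in 68 of 253, 25 of 94, 83 of 247 and 53 of 166 cells, which is 26.9, 26.6, 33.6 and 31.9%. At 500 molecules per cell these shares were 13.5, 16.2, 19.98 and 17.4%. Neutrophil-like cells, taken as the background, gave 1.61, 1.65, 0.741 and 0.796% unthinned and 0.650, 0.532, 0.358 and 0.368% thinned; their median depth of 1174 to 1229 molecules was below the 3029 to 3726 of tumour cell-like cells. The most productive tumour cell held 12.2, 27.8, 10.7 and 11.7% of its class's Csf2. Csf2 in tumour cell-like cells was thus found in a minority of cells, at shares well above the background at equal depth.

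The 229 tumour cell-like cells with Csf2 were compared with the 531 without it for genes the split did not use. Their median depths differed, 4141 against 2945 molecules, so shares rise with depth too. Cxcl1, a neutrophil chemokine, was found in 91.3% of cells with Csf2 and 74.4% of those without. Gata3 was found in 78.2 and 65.7%, Csf1 in 67.2 and 57.2%, and the class II gene H2-Aa in 86.9 and 78.9%. Lgals1, a gene of the tumour gate, was found in every cell of both sets.

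Outside the tumour cells, Csf2 depended on few cells. Mast cell/basophil-like cells stood at 10185, 40654, 3147 and 49.5 CPM, with Csf2 in 5 of 7, 4 of 6, 5 of 16 and 1 of 9 cells. A single cell held 52.7, 57.1 and 81.6% of it in tags 1 to 3, and tag 4 had 1 molecule. T cell-like cells stood at 2502, 135, 314 and 864 CPM from 5, 2, 17 and 12 cells with Csf2. CD4 T cell-like cells were higher still in tags 1 and 4, with 5464, 243, 667 and 2698 CPM, where 1 cell held 78.8 and 88.4% of the molecules. CD8 T cell-like cells ranged from 0 to 45.6 CPM, and NK cell-like cells had at most 1 molecule in any tag. In T cell-like and CD4 T cell-like cells the cartridges overlapped, while in mast cell/basophil-like cells tags 1 and 2 lay above tags 3 and 4. In each of these classes few cells held the molecules.

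The 36 T cell-like cells with Csf2 also differed from the other 585 in genes of T cell subsets. Il17a, the cytokine gene of type 17 cells, was found in 13.9% of them against 1.03%. Trdc, the constant chain of the gamma-delta receptor, was found in 19.4% against 5.98%, and Kit in 50.0% against 19.0%. Foxp3, the factor of regulatory T cells, was found in 8.33% against 20.3%, and Cd4 in 52.8% against 48.9%. These shares pool the 4 tags and rest on 36 cells.

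Il6, on chromosome 5 (30013114 to 30019981, plus strand), was concentrated in the rarest classes. Mast cell/basophil-like cells stood at 37291, 27410, 32605 and 7717 CPM, with Il6 in 7 of 7, 6 of 6, 16 of 16 and 6 of 9 cells. Tag 4 was the lowest, and 1 cell held 66.7% of its molecules. A cell of this class held a median of 122, 43.5, 37 and 3 Il6 molecules in tags 1 to 4, and the highest cells held 208, 127, 325 and 104. The class held 31.1, 22.1, 45.6 and 25.0% of all Il6 with 7, 6, 16 and 9 cells. Stromal cell-like cells stood at 8862, 4818, 2689 and 5846 CPM, with Il6 in 20 of 21, 7 of 10, 10 of 15 and 7 of 8 cells, and held 52.1, 7.97, 5.71 and 33.2% of it. The ranges of these 2 classes overlapped, and both lay above every other class in all 4 tags. In the mast cell/basophil-like class the B cell markers were at 0 for 12 of 13 genes. Of the 12 monocyte/macrophage markers, C1qa, C1qb, Trem2 and Apoe were at 0. Together the 12 summed to 1080.9, 1760.3, 1049.1 and 6134.4 CPM. The 17 T cell markers summed there to 956, 5365, 2623 and 5838 CPM, with 7 of them at 0. The 15 NK cell markers summed to 11724, 5197, 1766.9 and 197.88 CPM. The 7 neutrophil markers reached 21223 CPM in tag 4, their highest tag. The part of all these markers in the Il6 values was not tested.

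In tag 2 mixed cells held 53.9% of Il6, against 1.70, 11.7 and 8.33% in tags 1, 3 and 4. Of those in tag 2, 3 cells also passed the mast cell/basophil gate and held 648 molecules. The largest held 383, beside 58 Il4 and 360 Lyz2 molecules, and had passed the mast cell/basophil and the monocyte/macrophage gates. With the mixed cells that passed its gate added, the mast cell/basophil-like share of Il6 became 31.1, 65.9, 53.5 and 27.6%.

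The stretches just before the Il6 and Csf1 start sites are shown because a kappaB-like match was found in these 2 of the 7 genes. Both had their highest mean level in the mast cell/basophil-like class, as did Csf2 and Kit, whose windows held no such match. The Csf2 window, at chr11:54249900-54250149 (minus), did not reach the gene start at 54249667 given above, so the bases next to that start were not searched. The Il3ra, Csf3r and Kit windows ended at 14346494, 126024658 and 75574986. These ends lie past the starts of 14346275, 126024550 and 75574916 used for these genes here. The windows of the 7 genes are therefore not placed alike. The 2 stretches shown are the 250 bases upstream of the start in RefSeq, GRCm38.p6, written 5′ to 3′ along the gene's strand. They lie at chr5:30012864-30013113 (plus) and chr3:107760470-107760719 (minus). Capitals mark matches to 4 of the motifs searched on both strands. A GATA motif, AGATAA, found in 9.99% of promoters, and a TATA motif, TATAAA, found in 12.4%, were searched too. Neither had a match in these 2 stretches. Among the other genes, Csf2 held a C/EBP-like and a GATA match and Il3ra a C/EBP-like match.

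Il6: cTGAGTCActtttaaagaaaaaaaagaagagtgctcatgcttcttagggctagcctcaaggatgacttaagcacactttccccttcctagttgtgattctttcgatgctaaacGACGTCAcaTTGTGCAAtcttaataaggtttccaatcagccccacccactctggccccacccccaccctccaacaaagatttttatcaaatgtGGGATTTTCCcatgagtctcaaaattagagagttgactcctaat

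Csf1: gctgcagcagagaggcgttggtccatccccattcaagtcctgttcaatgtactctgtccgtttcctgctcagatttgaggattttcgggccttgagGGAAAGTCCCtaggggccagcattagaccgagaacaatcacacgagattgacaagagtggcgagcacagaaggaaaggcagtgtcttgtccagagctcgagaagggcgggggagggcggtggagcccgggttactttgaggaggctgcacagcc

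A kappaB-like motif, GGG and TTTCC with any 2 bases between, lay from -44 to -35 before the Il6 start and, on the reverse strand, from -154 to -145 before the Csf1 start. It occurred in 1.41% of 32851 promoters of this length and in 2 of the 7 genes. The other capitals before Il6 are an AP-1-like TGANTCA from -249 to -243, found in 6.75% of promoters, a CRE, GACGTCA, from -137 to -131, found in 2.78%, and a C/EBP-like TTGCNNAA, here on the reverse strand, from -128 to -121, found in 9.56%. These matches describe letters and not binding.

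The 38 mast cell/basophil-like cells fell apart by Kit, a gene their gate did not use. Mast cells carry the KIT receptor and store the protease Cpa3, while mature basophils largely lack KIT. Kit was found in 13 cells, 0, 1, 5 and 7 in tags 1 to 4, and not in 25, which were 7, 5, 11 and 2. Among cells with Kit, Il6 stood at 622 CPM in tag 2 (1 molecule), 4878 in tag 3 and 2842 in tag 4. Among cells without Kit it stood at 37291, 31583, 43246 and 15902 CPM, above every tag of the cells with Kit, and was found in all 25. The summed levels of the 2 sets did not overlap in any tag that held both, while single cells did: in tag 3 the highest cell with Kit held 32 Il6 molecules and the lowest without it 14. The median cell without Kit held 122, 68, 68 and 60 Il6 molecules, and the median cell with Kit 1, 5 and 2 in tags 2 to 4.

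Csf1 divided in the same way. It stood at 5197, 4360, 3629 and 6758.5 CPM in cells without Kit and at 0, 298.7 and 474 CPM in cells with Kit of tags 2 to 4. Csf2 stood at 10185, 46987, 4317 and 0 CPM in cells without Kit and at 0, 99.6 and 78.9 CPM in cells with Kit of tags 2 to 4. It was found in 13 of the 25 cells without Kit, and 2 of the 13 with Kit held 1 molecule each. Tags 2 and 3 were thus higher without Kit, and tag 4 had no molecule without Kit and 1 with it. Cpa3 ran the other way, at 484 to 2253 CPM without Kit and 56592 to 87464 CPM with it, and so did Fcer1a, a chain of the IgE receptor, at 1550 to 2785 and 31576 to 41314 CPM. Il4 was found in 24 of 25 cells without Kit and 2 of 13 with it. Cpa3, Fcer1a, Il4 and Il13 were the 4 genes of the gate, so Il4 and Il13 helped to admit cells to the class. The class as a whole was lowest in Il6 in tag 4, where 7 of 9 cells had Kit, and the part of this in the tag 4 value was not tested. The median depth was 1894 molecules with Kit and 2511 without.

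**Figure D4:**
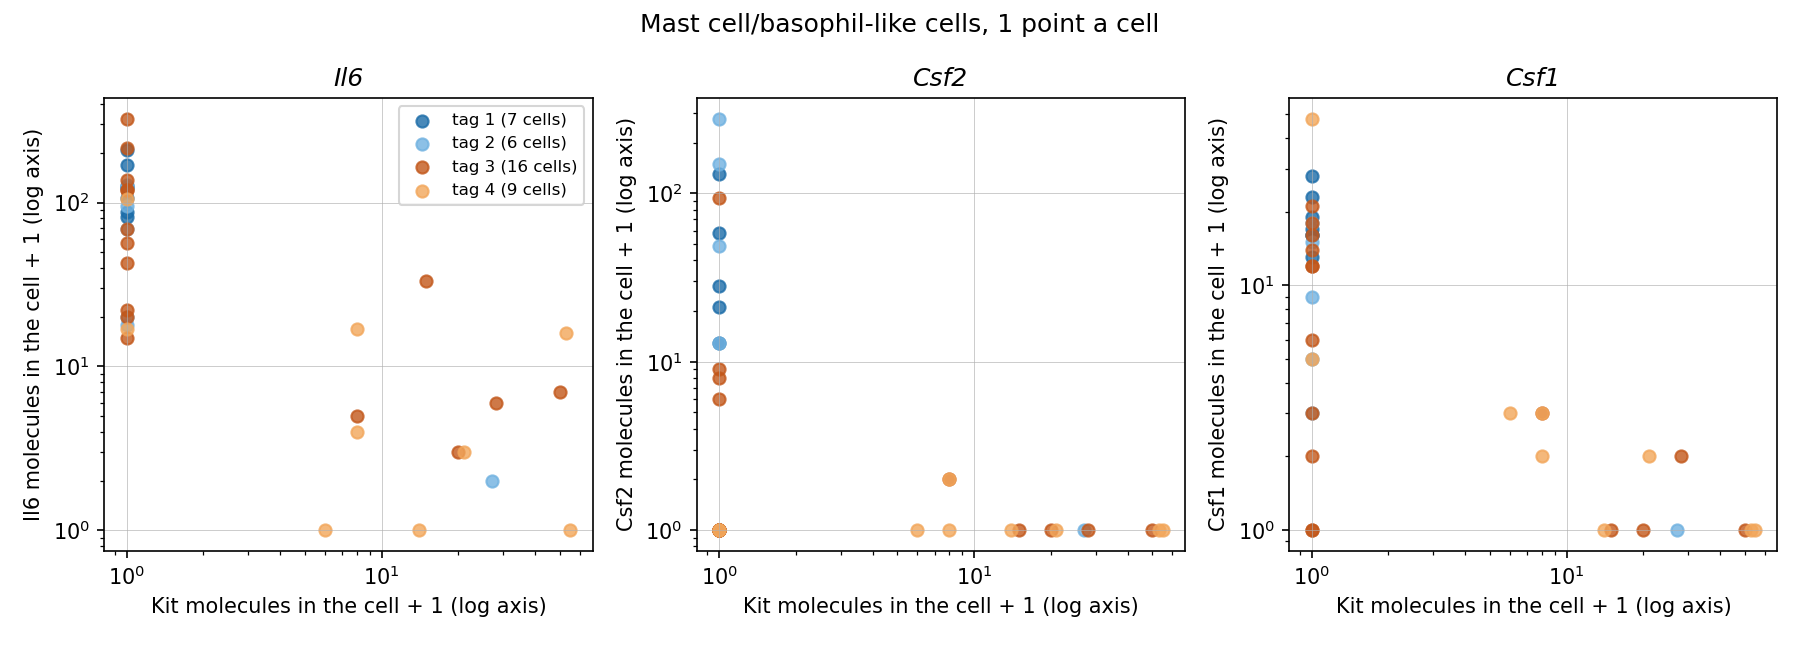
Il6, Csf2 and Csf1 molecules (y axes) against Kit molecules (x axes) in each mast cell/basophil-like cell, all plus 1 on log axes, coloured by tag. Cells with the most Il6, Csf2 and Csf1 stand at the left edge, where Kit is 0.

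Stromal cell-like cells were also not uniform in Il6. The 44 with Il6 and the 10 without had median depths of 5344 and 1307.5 molecules. Csf1 was found in 41 of 44 cells with Il6 and 3 of 10 without, Il3ra in 23 and 1, and Cxcl1 in 43 and 4. Kit ran the other way, in 3 of 44 and 6 of 10. Depth moved with these shares, and its part in them was not tested.

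In the large classes Il6 was sparse. Monocyte/macrophage-like cells stood at 220, 214, 485 and 665 CPM, with Il6 in 19.0, 23.4, 20.9 and 13.2% of cells; thinned shares were 7.25, 7.65, 9.07 and 7.78%, and 1 cell held 28.4, 34.5, 26.1 and 49.5% of the molecules. Neutrophil-like cells stood at 29.1, 76.6, 3.28 and 3.75 CPM, with 86, 144, 29 and 6 molecules in 79, 58, 23 and 5 cells. One cell of tag 2 held 82 of those 144. T cell-like cells, taken as the background, stood at 54.0, 33.7, 8.40 and 6.09 CPM, from only 3, 2, 3 and 1 molecules. Their thinned shares were 3.14, 1.13, 0.328 and 0.763% at median depths of 957, 891, 777 and 817 molecules. The thinned shares of neutrophil-like cells were 1.37, 1.75, 0.165 and 0.145%, below T cell-like cells in 3 of 4 tags, and were read as background. That order rests on the few T cell-like molecules. In tumour cell-like cells they were 1.87, 2.52, 0.573 and 0.110%, also close to those of T cell-like cells.

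Among the receptors, Csf3r, on chromosome 4 (126024550 to 126044440, plus strand), marked the neutrophil-like class. Its CPM there was 15125, 14655 and 13897 in tags 2, 3 and 4, and 98.4, 98.4 and 99.3% of cells held at least 1 molecule. Thinned shares were 95.9, 95.2 and 96.1%. In tumour cell-like cells, taken as the background, the level was 392, 548 and 418 CPM and the thinned shares were 14.1, 14.0 and 9.71%, from median depths of 3485.5, 3029 and 3114.5 molecules. Neutrophil-like cells held 93.7, 94.5 and 88.8% of all Csf3r. No other class overlapped them, and the next by mean level was the other T cell-like class, with 3893, 2459 and 1622 CPM. That class holds T cell-like cells in which neither Cd4 nor Cd8 reached 3 molecules, or both did. Monocyte/macrophage-like cells stood at 1333, 1051 and 1345 CPM. The 3 tags were close, and the level did not separate the cartridges.

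Csf3r nevertheless varied with neutrophil state. Cluster 7, with the immature and dividing genes, stood at 1867, 2484 and 1890.5 CPM in tags 2 to 4. Cluster 3 stood at 25514, 30172 and 28607 CPM. Every other cluster of the class lay between, from 10207 to 18086 CPM. With S100a8, S100a9 and Fth1 left out of the totals the order of these extremes held, at 5714, 9233 and 7400 CPM in cluster 7 and 39642, 51312 and 47826 CPM in cluster 3. Clusters with high Csf3r were thus also those with high Csf1 at the extremes, though cluster 9, led by Ccl3 and Il1rn, combined a low Csf3r level of 10207 to 11024 CPM with a Csf1 level of 1250 to 1502 CPM.

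Il3ra, on chromosome 14 (14346275 to 14356011, plus strand), was low everywhere, with 276, 163, 39 and 10 molecules in all cells of tags 1 to 4. That is 51.9, 54.4, 3.14 and 3.25 CPM, and pooled tags 1 and 2 stood 16.7-fold above pooled tags 3 and 4. In monocyte/macrophage-like cells it was 121, 159, 11.7 and 7.23 CPM, a pooled 12.2-fold. In T cell-like cells it was 234, 236, 11.2 and 0 CPM, from 13, 14, 4 and 0 molecules, and 0 of 151 cells in tag 4 allows, at the floor of 3 counts, a share of cells with a molecule of up to 1.99%. In neutrophil-like cells it was 10.8, 19.7, 0.566 and 2.501 CPM, a pooled 16.6-fold. The same split was seen in stromal cell-like cells, with 366, 694, 18.2 and 0 CPM. In tag 2, 1 cell held 58.8% of those molecules, and without it the level was 348 CPM. The 12 monocyte/macrophage markers summed in stromal cell-like cells to 19564, 21028, 5595 and 706 CPM. Their part in the Il3ra and Il6 values of this class was not tested. The mast cell/basophil-like class, with 3 molecules in each pair of tags, gave no usable comparison. Tags 1 and 2 never overlapped tags 3 and 4 in the 5 sets of cells plotted.

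**Figure D5:**
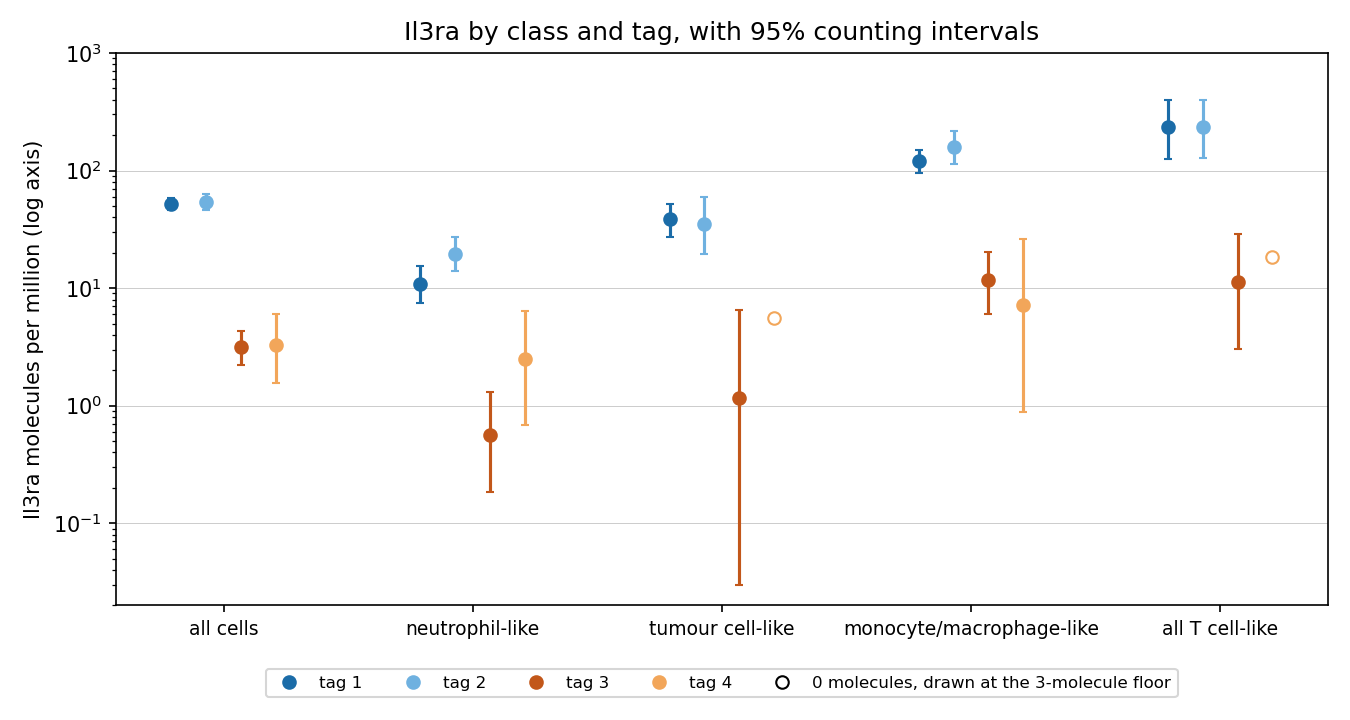
Il3ra level in CPM (log axis) in all cells and in the 4 largest classes, 1 point per tag with exact 95% counting intervals; open circles are tags with 0 molecules, drawn at the level of 3 molecules. Tags 1 and 2 stand above tags 3 and 4 in each set.

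Classes differed in Il3ra within a cartridge as well. Thinned shares in tags 1 and 2 were 0.427 and 0.558% in neutrophil-like cells, 1.98 and 2.51% in tumour cell-like cells, 6.75 and 7.48% in monocyte/macrophage-like cells, 10.2 and 13.5% in T cell-like cells and 17.5 and 22.0% in stromal cell-like cells. When thinned, monocyte/macrophage-like cells exceeded neutrophil-like and tumour cell-like cells but not T cell-like cells, which are not known for this receptor. Unthinned shares were 28.1 and 32.5% in monocyte/macrophage-like cells and 17.8 and 20.8% in T cell-like cells. The order of these 2 classes thus depended on thinning. Expression by monocyte/macrophage-like cells was neither read from their share nor tested. The T cell-like shares rest on 8 and 11 cells with a molecule. Median depths of monocyte/macrophage-like cells were 3354 and 2773 molecules, against 957 and 891 in T cell-like cells. Cartridge and anti-PD-1 treatment cannot be told apart. Markers of other cell types in neutrophil-like cells moved with the cartridges too. The summed level of 5 tumour markers there was 10144, 9009, 4824 and 4293 CPM, that of 4 stromal markers 71.1, 81.9, 31.4 and 24.4 CPM, and that of 4 mast cell/basophil markers 5.08, 4.25, 1.47 and 0.625 CPM. The 17 T cell markers stayed at 373 to 403 CPM. The part of these markers in the Il3ra and Il6 values was not tested.

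Flt3, on chromosome 5 (147330741 to 147400489, minus strand), was highest in dendritic cell-like cells, at 1907, 4098, 2407 and 1080 CPM, with no overlap with any other class. It was found in 6 of 11, 8 of 8, 35 of 53 and 5 of 16 cells. Thinned shares were 31.4, 81.2, 53.5 and 21.8%, at median depths of 1817, 2032, 1755 and 1755.5 molecules. Tag 2 was highest and tag 4 lowest, each with few cells. In tumour cell-like cells, taken as the background, 2 molecules in 1 cell of tag 1 were seen and none in the other tags. Dendritic cell-like cells held 41.5, 40.6, 48.8 and 26.2% of all Flt3. Monocyte/macrophage-like cells stood at 49.2, 105, 70.1 and 108 CPM, where 1 cell held 57.6, 88.9, 47.2 and 53.3% of the molecules. CD4 T cell-like and mast cell/basophil-like cells held no Flt3 molecule in any tag. In tag 4 mixed cells held 37.6% of Flt3, 1 of them 31 molecules after passing the NK cell and the dendritic cell gates.

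Among dendritic cell-like cells, the 54 with Flt3 were set against the 34 without it, at median depths of 1891.5 and 1677.5 molecules. Il12b, a subunit of interleukin 12, was found in 18.5% against 0 of 34, which allows, at the floor of 3 counts, a share of cells with a molecule of up to 8.82%. Ccr7, the receptor that leads dendritic cells to lymph nodes, was found in 57.4 against 38.2%, and Kit in 40.7 against 17.6%. Csf1 and Cxcl1 ran the other way, at 7.41 against 29.4% and 20.4 against 52.9%. The share of cells with Il7r also ran the other way, at 46.3 against 55.9%. Fscn1, an actin-bundling gene of migrating dendritic cells, was found in 25.9 against 41.2% of cells, while its summed level was 10907 CPM with Flt3 and 1915 CPM without. Lgals1, a tumour gate gene, stood at 21721 CPM with Flt3 and 57243 CPM without. The part of tumour cell RNA in the cells without Flt3 was not tested.

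Kit, on chromosome 5 (75574916 to 75656722, plus strand), was spread over several classes. Mast cell/basophil-like cells stood at 0, 2179, 3203 and 7816 CPM, from 0 of 7, 1 of 6, 5 of 16 and 7 of 9 cells. NK cell-like cells stood at 420, 1403, 1466 and 2105 CPM, with thinned shares of 18.6, 22.9, 26.3 and 27.3%. CD4 T cell-like cells stood at 1221, 971, 839 and 1157 CPM, with thinned shares of 22.4, 27.0, 20.5 and 19.2%. Dendritic cell-like cells stood at 817, 1425, 701 and 700.5 CPM. Tumour cell-like cells, taken as the background, stood at 10.5, 2.53, 29.2 and 14.7 CPM, with thinned shares of 0.397, 0.0779, 0.553 and 0.498%. The 4 former classes overlapped each other in range, and the last 3 of them lay above the background in every tag.

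Neutrophil-like cells held 51.5, 38.9, 39.2 and 15.4% of Kit by their number, at a level of 81.6, 90.4, 70.6 and 57.5 CPM. Their thinned shares were 1.84, 2.32, 2.34 and 2.43%, above those of tumour cell-like cells. Within them cluster 7, with the immature genes, held 0 Kit molecules in its 11, 10, 170 and 28 cells. Cluster 3 stood at 127, 111, 154 and 88.7 CPM. Kit thus did not mark the cluster with the immature genes.

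Lymphoid cells with and without Kit were set side by side. The 33 NK cell-like cells with Kit held the granzyme gene Gzma in 51.5% of cells, against 95.6% of the 91 without. Tcf7, a factor of less differentiated lymphocytes, was found in 60.6 against 35.2%, and Il7r, a receptor of innate lymphoid cells, in 12.1 against 3.30%. Among T cell-like cells, Csf2 was found in 14.0% of the 129 with Kit and 3.66% of the 492 without. Gzma was again less often found with Kit, at 9.30 against 16.9%. Tcf7 ran opposite to the NK cell-like cells, at 36.4% with Kit and 52.0% without. Cells with Kit were deeper, with medians of 1003 against 676 molecules in NK cell-like and 1081 against 733.5 in T cell-like cells, and the part of depth in these shares was not tested.

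The cartridges were compared over all cells and in the 4 classes where each tag held 30 cells or more. A gene was called where both tags of one cartridge lay above both of the other with the nearest tags at least 1.5-fold apart and at least 30 molecules were counted. This is a rule of size, and the log2 ratios are the mean of tags 3 and 4 minus that of tags 1 and 2. Over all cells, Il6 and Il3ra were lower in tags 3 and 4, 2 of 6 genes measured, where 3.72% of 376 panel genes were called lower and 6.38% higher. In neutrophil-like cells the same 2 of 6 were lower, where 16.6% of 313 genes were called lower and 1.92% higher. In tumour cell-like cells they were lower as 2 of 5, against 10.5% of 229 genes lower and 5.24% higher. In T cell-like cells Il3ra was lower, 1 of 4, against 5.54% lower and 5.19% higher of 289 genes. In monocyte/macrophage-like cells Il3ra was lower and Il6 higher, 2 of 6, against 3.23% lower and 1.08% higher of 279 genes. The split of the panel depended on scaling. Genes higher and lower numbered 6 and 52 in neutrophil-like cells but 15 and 25 with trimmed-mean scaling, 3 and 9 against 7 and 6 in monocyte/macrophage-like cells, and 12 and 24 against 15 and 17 in tumour cell-like cells. Over all cells they numbered 24 and 14, and 42 and 8 without S100a8, S100a9 and Fth1 in the totals. Relative to all genes, the median of the measured genes' ratios among the 7 was -0.60, -0.52, 0.06, -0.32 and -0.24 in all, neutrophil-like, monocyte/macrophage-like, T cell-like and tumour cell-like cells. The medians of all genes themselves were -0.10, -0.36, -0.21, -0.04 and -0.20.

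Over all cells Il6 stood at 542, 494, 209 and 203 CPM, a log2 ratio of -1.33 ± 0.08 (counting interval), the ninth lowest of 376. Its direction depended on class. The ratio was -3.75 ± 0.66 in neutrophil-like cells and -4.02 in tumour cell-like cells, at 71.9, 86.0, 12.8 and 1.84 CPM. In both classes the molecules were few, 34 to 144 per tag in tags 1 and 2 and 1 to 29 in tags 3 and 4. The shares of cells lay near the background of T cell-like cells, which was itself lower in tags 3 and 4. That background rested on 1 to 3 molecules per tag. The 4 stromal markers summed in tumour cell-like cells to 73.8, 43.0, 21.02 and 11.1 CPM, and their part in the Il6 ratio was not tested. In tumour cell-like cells the ratio became -2.42 without the cell with the most molecules in each tag. In monocyte/macrophage-like cells the ratio was 1.39 ± 0.25, but -0.65 with cells assigned by clustering and -0.38 with 1 more marker in every gate, so its direction there depended on which cells were counted. Stromal markers summed in that class to 71.5, 46.6, 90.5 and 192 CPM, and their part in the ratio was not tested.

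Il3ra had the lowest ratio of all 376 genes over all cells, -4.06 ± 0.52. It was -3.62 in neutrophil-like cells, -3.92 in monocyte/macrophage-like cells, -3.86 in tumour cell-like cells and -4.04 in T cell-like cells. The last 2 values set tag 4, at 0 molecules, to 3 molecules. Csf1 was not called in any class, with -0.59 ± 0.06 in neutrophil-like and -0.44 in tumour cell-like cells. With S100a8, S100a9 and Fth1 left out of the totals its ratio in neutrophil-like cells was -0.29, and with trimmed-mean scaling it was -0.22. Csf2 gave -0.07 ± 0.10 in tumour cell-like cells, where tags overlapped, and -1.18 in neutrophil-like cells, where it stood at 26.8, 10.6, 7.35 and 7.50 CPM. Kit gave -0.43 in neutrophil-like cells, and Csf3r -0.08 ± 0.02 there. Csf3r, for which tags 3 and 4 could be set only against tag 2, was called in none of the 5 comparisons. Against tag 2, genes called higher and lower made up 7.87 and 5.84% over all cells, 3.63 and 23.7% in neutrophil-like cells and 4.63 and 10.2% in monocyte/macrophage-like cells. They made up 15.2 and 13.9% in T cell-like cells and 11.7 and 9.73% in tumour cell-like cells.

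Between the 2 tags of a cartridge, which hold different arms, a gene was named at a 2-fold difference with at least 30 molecules in both tags together. The log2 ratios are tag 2 over tag 1 and tag 4 over tag 3. Over all cells, 16.3% of genes passed between tags 2 and 1 and 17.4% between tags 4 and 3. Of the 7 genes, Flt3 passed in the former, at 1.36, and Csf2 in the latter, at 1.25. Tumour cell-like cells held 60.3 and 63.1% of Csf2 in tags 3 and 4, at similar levels of 1287 and 1254 CPM. These cells, 247 and 166 in number, made up a larger part of all cells in tag 4 than in tag 3. The part of this in the Csf2 ratio over all cells was not tested.

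In neutrophil-like cells, where 9.32 and 7.59% passed, Il6 gave 1.39 and Csf2 -1.33 between tags 2 and 1, and Flt3 gave 1.62 between tags 4 and 3. These rested on few cells. Without the cell with the most molecules in each tag, Il6 stood at 28.1 and 33.0 CPM in tags 1 and 2, Csf2 at 17.3 and 9.58 CPM, both under 2-fold, and Flt3 at 1.92 and 5.01 CPM in tags 3 and 4.

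In monocyte/macrophage-like cells, where 10.4 and 13.2% passed, Csf1 gave -1.03, Kit -1.01 and Flt3 1.09 between tags 2 and 1, and Csf2 gave -3.65 between tags 4 and 3. Without the top cell of each tag, Flt3 stood at 21.3 CPM in tag 1 and 11.8 in tag 2, which turns its direction, and Kit at 34.7 and 27.5 CPM, under 2-fold. Csf1 then stood at 209.9 and 88.2 CPM, and Csf2 at 50.1 CPM in tag 3 and 3.72 in tag 4.

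In T cell-like cells, where 15.7 and 8.19% passed, Csf1 and Csf2 were named in both cartridges, in opposite directions. Csf1 gave 1.27 between tags 2 and 1 and -1.04 between tags 4 and 3, and Csf2 gave -4.21 and 1.46. Without the top cell of each tag, Csf2 stood at 1338, 17.1, 202 and 264 CPM in tags 1 to 4, so that tags 3 and 4 came under 2-fold, and Csf1 at 206, 462, 388 and 172 CPM. None of the 7 was named in tumour cell-like cells, where 10.2 and 4.33% of genes passed.

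Other genes of these pathways were read from a list of 44, of which 19 were counted in all tags. Over all cells 18 were measured: Il1b and Il4 were lower in tags 3 and 4 and Il5 was higher. Of the 376 panel genes measured there, 3.72% were called lower and 6.38% higher. Il1b, an inflammatory cytokine gene, stood at 412, 455, 247 and 214 CPM. Il4, a type 2 cytokine gene, stood at 98.9, 79.8, 47.2 and 11.1 CPM. These levels rested on few cells. In tag 1 the 7 mast cell/basophil-like cells held 514 Il4 molecules, 337 of them in 1 cell. In tag 2 single mixed cells held 58 and 65, and in tag 3 a single mast cell/basophil-like cell held 137. Il5, the eosinophil growth factor gene, stood at 0.376, 0, 3.54 and 18.5 CPM and was also the 1 called of 16 in T cell-like cells, at 36.0, 0, 98.0 and 152 CPM. Both calls set tag 2, at 0 molecules, to 3 molecules. T cell-like cells were 98 of 3945 cells in tags 1 and 2 and 523 of 8073 in tags 3 and 4. The part of this in the Il5 level over all cells was not tested. In T cell-like cells 5.19% of 289 panel genes were called higher. In neutrophil-like cells 3 of 15 were lower, where 16.6% of 313 panel genes were called lower. These were Il1b at 578, 579, 269 and 285 CPM, Myc at 107, 69.1, 34.7 and 25.0 CPM, and Bcl2a1a, a survival gene, at 3489, 3506, 1956 and 2009 CPM. Of 14 measured in monocyte/macrophage-like cells none was called. In tumour cell-like cells Il7r and Bcl2a1a were lower, 2 of 14, where 10.5% of 229 panel genes were called lower. Bcl2a1a was called in neither class when totals were scaled by trimmed means, and Il13 was then called higher over all cells. Relative to all genes, the list's median ratios were -0.03, -0.03, -0.18, -0.12 and -0.15 in all, neutrophil-like, monocyte/macrophage-like, T cell-like and tumour cell-like cells.

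Il6ra, the receptor chain that binds IL-6, was not called in any class. It stood at 584, 524, 498 and 524 CPM in neutrophil-like cells, which held 56.0, 63.1, 72.4 and 54.4% of its molecules. Monocyte/macrophage-like cells stood at 727, 735, 656 and 907 CPM, and tumour cell-like cells at 547, 400, 320 and 344 CPM. The mast cell/basophil-like class, high in Il6 itself, stood at 41.6, 0, 0 and 198 CPM. The receptor chain was thus widespread where the cytokine was not.

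The genes most like each of the 7 were taken over the same 4 classes, 16 points of class and tag, by Pearson correlation of log2(CPM + 10). Points share tags, cells and totals, so the values describe these data. Csf1 was most like Il15 (0.87) and Adgrg3 (0.83), Csf2 most like Gata3, Nt5e and Pik3ip1 (each 0.90), and Il6 most like C1qb (0.87) and Cd34 (0.85). Flt3 was most like Blnk (0.97) and Clec10a (0.93), and Kit most like Btg1 (0.97) and Cxcr5 (0.94). Csf3r, over 12 points, was most like Slfn4 (0.99), and Il3ra had no close match, Ifnar1 being the nearest at 0.68. The mast cell/basophil-like, stromal cell-like and dendritic cell-like classes were too small to enter these correlations.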

How the data were processed

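Single-cell counts of targeted transcripts were used from 2 cartridges with 2 sample tags each. The deposited tables hold molecule counts per cell. Per the file headers, the authors' counts came from version 1.12.1 of the BD Rhapsody Targeted Analysis Pipeline, after distribution-based error correction and assignment to tags. The submitters' processing notes also name Seurat 3.2.0. No aligner is named, and the build is not given in the sources used here. The table of tag 1 was counted against a list of 396 genes, the other tags against 468, and the 396 shared genes form all totals. The 2 Tigit targets of tag 1 were summed.

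Cells were assigned to classes by marker gates whose thresholds were set after the marker counts had been seen. Gates needed for example at least 2 of Cpa3, Fcer1a, Il4 and Il13 (mast cell/basophil-like), or 2 of Il33, Cd34, Lrrc32 and Thy1 at 3 molecules (stromal cell-like). Molecules were summed per class and tag (CPM) with exact Poisson intervals, and shares of cells carry exact Clopper-Pearson intervals, both covering counting error only. Ratios took 3 molecules as the floor for a tag with none, and 3 cells gave the limit for a share of 0. Thinning to 500 molecules per cell was computed exactly and left out shallower cells. Clusters came from 30 principal components, 15 neighbours and Leiden resolution 1.0 without the 7 genes (17 clusters; scanpy 1.11.5, igraph 0.11.9, Python 3.11.15), with no batch integration. Scrublet marked 3 cells (0.025%), which was not taken as a usable call, and no doublets were removed. The calling rule was checked on simulated data.

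All 7 genes are named, pathway genes where called or where they are a direct partner, and 3 like genes per member by correlation. The 7 genes, the lists and the marker genes were chosen with earlier results of these data known. Coordinates are from GENCODE M21 (GRCm38), and promoter sequences from RefSeq (GRCm38.p6), where 7 of 7 genes matched. Alternatives were Leiden classes, trimmed-mean (TMM) scaling, totals without S100a8, S100a9 and Fth1, other molecule minimums, 1 more marker in every gate, removal of the top cell or of the 5% of cells with the highest doublet scores, and leaving out each tag.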

Additional observations from a re-analysis of the deposited data

Results flagged for a closer look

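Il6 moved in opposite directions in different classes, with every tag on its side. Its log2 ratio of tags 3 and 4 over tags 1 and 2 was -3.75 in neutrophil-like cells and -4.02 in tumour cell-like cells, and 1.39 in monocyte/macrophage-like cells. In monocyte/macrophage-like cells it was -0.65 with cells assigned by clustering and -0.38 with 1 more marker in every gate, so the direction there depended on which cells were counted. In neutrophil-like cells the share of cells with Il6 was read as background, against T cell-like cells with 1 to 3 molecules per tag. The difference between classes was not tested.

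Cells called mixed, and so left out of every class, held a large part of 2 genes. They held 53.9% of the Il6 molecules of tag 2 and 37.6% of the Flt3 molecules of tag 4. In tag 2, a single such cell held 383 Il6 molecules, or 25.9% of the tag's total.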

How the results depend on the processing

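Of 97 recomputed ratios of genes called between cartridges, 94 kept their call and 2 changed direction: Il6 in monocyte/macrophage-like cells fell to -0.65 with Leiden classes and -0.38 with 1 more marker in every gate. Il6 became -1.13 over all cells without S100a8, S100a9 and Fth1 in the totals, and -2.42 in tumour cell-like cells without the top cell of each tag. Without those 3 genes, panel genes called higher and lower numbered 42 and 8 over all cells (24 and 14 before) and 13 and 31 in neutrophil-like cells (6 and 52 before). Scaling by TMM gave 15 and 25 in neutrophil-like cells and 7 higher in monocyte/macrophage-like cells (3 before). Leiden classes gave 8 higher and 15 lower in monocyte/macrophage-like cells (9 lower before); no molecule minimum gave 5 higher there. One more marker gave 2 higher in neutrophil-like cells, and a minimum of 100 molecules gave 8 higher in T cell-like cells (15 before).

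Leaving out each tag in turn, genes called higher and lower ranged from 26 to 93 and 22 to 47 over all cells, 9 to 14 higher in neutrophil-like cells, 11 to 13 and 19 to 40 in monocyte/macrophage-like cells, 17 to 45 and 22 to 32 in T cell-like cells, and 18 to 28 and 21 to 45 in tumour cell-like cells. With 3 tags the rule is easier to meet by construction; in monocyte/macrophage-like cells the count rose whichever tag was left out, and over all cells genes called higher numbered 93 without tag 2 and 83 without tag 3. In neutrophil-like cells Il6 ranged from -4.45 to -3.05 and Il3ra from -4.69 to -2.55, and in tumour cell-like cells from -5.42 to -2.61 and -4.98 to -2.74. Il3ra in T cell-like cells fell under 30 molecules, and so was not called, without the top cell of each tag. Kit in tumour cell-like cells was called higher with TMM and, on 34 molecules, without tag 1.

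No paired analysis was possible because each group had 1 sample and the 2 cartridges share no replicate. Depth limits the rare classes: mast cell/basophil-like values rest on 6 to 16 cells a tag, and Il3ra on 39 and 10 molecules in tags 3 and 4.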
